A study of Mus musculus with 15 samples.

Results

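The 50 genes described here encode the TGF-beta and BMP signalling pathway in mouse cerebral vessels. They were taken by name from a table of 22526 gene symbols, and all 50 were found. They comprise 10 ligands, 5 latent-complex proteins and activators, 5 type I and 4 type II receptors, 2 co-receptors, 8 SMADs, 5 target genes, 5 secreted antagonists, the pseudoreceptor Bambi, 2 ubiquitin ligases and 3 nuclear corepressors. Of these, 48 averaged at least 1 FPKM (fragments per kilobase of transcript, scaled to depth) over the 15 libraries and entered the test. The other two, Inhba and Fst, lay below that level.

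Bulk RNA sequencing was done on cerebral vessels of wild-type C57BL/6 mice aged 8 months, with 5 libraries in each of 3 groups. LH3-AL mice had a stereotactic injection of an adeno-associated virus carrying LH3, the collagen-modifying enzyme made from Plod3, followed by angiotensin II plus L-NAME, which blocks nitric oxide synthesis. GFP-AL mice had the same drugs after a virus carrying green fluorescent protein, and GFP-Veh mice had that control virus and saline. Every group therefore carried a virus, and no group combined the LH3 virus with saline. The sources used here name neither the promoter in the virus nor the number of mice behind a library. P-values therefore measure the spread between these libraries, which may be partly technical.

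TGF-beta ligands are secreted in a latent complex, tethered to matrix by latent TGF-beta binding proteins, and are freed by proteins such as integrins and thrombospondin. Ligands of the family bind a type II receptor that activates a type I receptor. The type I receptors of TGF-beta and activin phosphorylate SMAD2 and SMAD3, those of BMPs phosphorylate SMAD1, SMAD5 and SMAD9, and both sets join SMAD4 in the nucleus. In brain vessels the endothelial receptors ALK1 (Acvrl1) and endoglin (Eng) are known for their loss in hereditary haemorrhagic telangiectasia, and loss of HTRA1 causes a hereditary small vessel disease in humans.

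Depth was estimated from how finely low values are spaced, and came to 18.1 to 31.6 M fragments (mega, M) in LH3-AL, 21.2 to 27.8 in GFP-AL and 13.6 to 29.9 in GFP-Veh, where replicate 5 alone was deep. GFP-AL replicates 2 and 3 lay farthest from the rest on the first principal component, at 49.4 and 58.0, while the other GFP-AL libraries scored 19.8 to 27.9 and the libraries of LH3-AL and GFP-Veh all scored below 0. GFP-Veh replicate 2 was the highest of its group, at -4.13, beside -27.1 to -19.3. These 3 are the libraries referred to as standing apart. Plod3, the transferred gene, averaged 21.6 ± 1.46 FPKM in LH3-AL, 13.9 ± 1.09 in GFP-AL and 16.8 ± 0.621 in GFP-Veh (SD, n = 5). LH3-AL overlapped neither other group. By the limma test described below, Plod3 was higher in LH3-AL than in GFP-AL (log2 fold change 0.60, adjusted p = 1.07e-04). It was also called lower in GFP-AL than in GFP-Veh (-0.25, limma adjusted p = 0.0216). The difference between LH3-AL and GFP-Veh was not called (0.34, limma adjusted p = 0.0628). Endothelial markers such as Cldn5 and Pecam1 were present in every library. The summed level of 14 such markers was 2603 to 4189 FPKM in LH3-AL, 3987 to 6030.2 in GFP-AL and 2903 to 4008 in GFP-Veh. In bulk tissue, fewer cells of a type and less RNA per cell cannot be told apart.

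Tgfb1, Inhbb, Thbs1, Smad1 and Tgfbi were called higher and Tgfb2 and Ltbp4 lower in GFP-AL than in GFP-Veh, and no receptor of the 50 passed the test. In GFP-AL against GFP-Veh 9 of the 48 tested genes were called higher and 6 lower (limma on log2(FPKM + 1), Benjamini-Hochberg adjusted p below 0.05 over 13082 genes). That is 31.25% of the members, beside 28.6% of all genes tested, so the share lay near the background. Set against GFP-AL, LH3-AL had 5 higher and 10 lower, again 31.25% beside 28.5% of all genes. By role, ligands held 6 of these 15 calls (3 higher and 3 lower, of 9 tested) in each comparison and latent-complex proteins and activators 3 (of 5 tested). Among the 8 SMADs 2 were called for the drugs and 3 for LH3-AL against GFP-AL, and among the 5 targets 2 and 1. The 11 receptors and co-receptors, Bambi and the ubiquitin ligases held none. No test compared the roles with each other. These comparisons share the GFP-AL libraries, so the values of both are given side by side and not as separate evidence. For LH3-AL against GFP-Veh limma called 0 of 48, beside 0.52% of all genes, and 5 of the 48 had an unadjusted p below 0.05, beside 9.02% of all genes. No other tool was run. The groups did not overlap at all for 11 of the 48 in GFP-AL against GFP-Veh, beside 16.7% of all genes. They did not overlap for 13 in LH3-AL against GFP-AL, beside 19.4%, and for 1 (Tgfb3) in LH3-AL against GFP-Veh, beside 4.67%.

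The median log2 fold change of the 48 genes was 0.04 in GFP-AL against GFP-Veh, beside -0.09 over all genes. For LH3-AL it was 0.04 beside 0.08 when set against GFP-AL, and -0.02 beside -0.01 when set against GFP-Veh. Over all genes GFP-AL had 1416 higher and 2321 lower calls against GFP-Veh, a split that became 1842 and 1711 after median-of-ratios scaling. LH3-AL against GFP-AL had 2227 higher and 1496 lower calls, which became 1782 and 1895. Among the pathway genes the same scaling gave 10 higher and 5 lower for the drugs, and 5 higher and 11 lower for LH3-AL against GFP-AL. No pathway gene called in the main test changed its sign under that scaling or under quantile normalization.

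**Figure D1:**
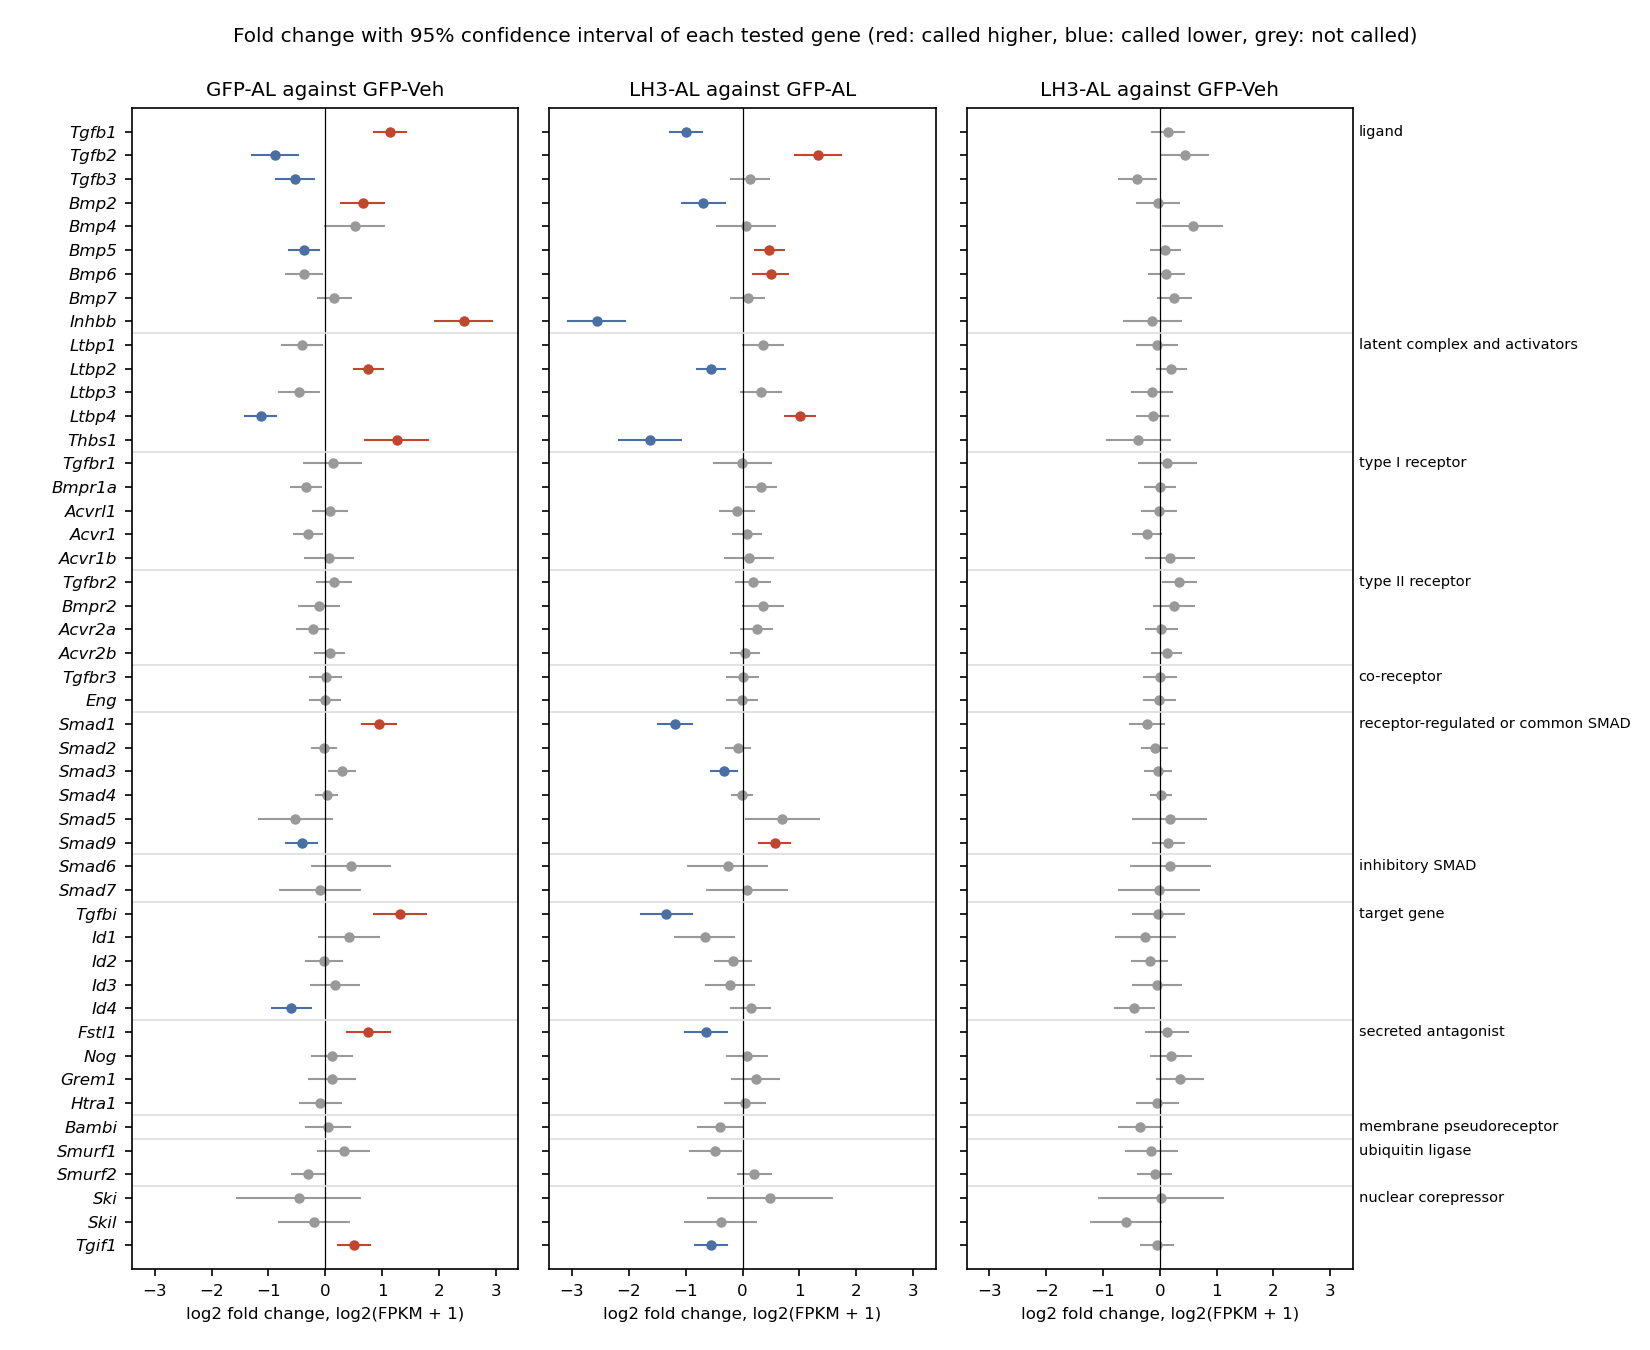
Log2 fold change on the log2(FPKM + 1) scale (horizontal axis) of the 48 tested genes (rows, grouped by role) in 3 comparisons, with 95% confidence intervals from limma. Called genes sit among the ligands, latent-complex proteins, SMADs, targets and a few regulators, and no receptor is coloured in any panel.

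The sequences before the RefSeq start of 5 of the changed genes are shown so that ligand, matrix protein and target can be read side by side. They include Tgfb1 and Tgfb2, which moved in opposite directions, the strongest changed gene Inhbb, the matrix gene Ltbp2 and the TGF-beta target Tgfbi. RefSeq promoters were found for 36 of the 50 genes (GRCm38.p6), and the windows of 250 bases are written 5′ to 3′ on the strand of the gene. Those of Ltbp2 and Tgfbi are printed up to the GENCODE start, which lies inside the window, at 209 and 187 bases. Capitals mark CAGAC, the minimal SMAD box, and GGCGCC, a GC-rich SMAD box of BMP targets, each searched on both strands (CAGAC reads GTCTG on the other strand), and no match shares a base with another in these windows.
Tgfb1, chr7:25686752-25687001, plus strand: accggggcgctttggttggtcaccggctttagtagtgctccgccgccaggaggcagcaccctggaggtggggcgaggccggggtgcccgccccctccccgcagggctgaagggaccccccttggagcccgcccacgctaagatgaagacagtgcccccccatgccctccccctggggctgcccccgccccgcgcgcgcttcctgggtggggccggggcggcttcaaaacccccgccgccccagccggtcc
Tgfb2, chr1:186705990-186706239, minus strand: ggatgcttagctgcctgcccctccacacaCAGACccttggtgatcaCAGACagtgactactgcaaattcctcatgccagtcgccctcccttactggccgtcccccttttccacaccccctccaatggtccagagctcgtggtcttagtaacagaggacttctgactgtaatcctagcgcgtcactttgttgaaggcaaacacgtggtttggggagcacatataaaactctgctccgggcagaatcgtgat
Inhbb, chr1:119422249-119422498, minus strand: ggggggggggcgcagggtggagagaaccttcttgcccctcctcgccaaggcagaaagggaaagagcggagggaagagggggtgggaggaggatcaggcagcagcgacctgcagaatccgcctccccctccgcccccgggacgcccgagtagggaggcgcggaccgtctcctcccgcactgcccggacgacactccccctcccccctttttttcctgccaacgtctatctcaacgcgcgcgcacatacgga
Ltbp2, chr12:84876533-84876741, minus strand: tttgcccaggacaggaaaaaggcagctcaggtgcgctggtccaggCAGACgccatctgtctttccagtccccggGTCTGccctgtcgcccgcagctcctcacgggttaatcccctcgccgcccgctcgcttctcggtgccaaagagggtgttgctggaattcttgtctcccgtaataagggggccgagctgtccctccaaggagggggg
Tgfbi, chr13:56609336-56609522, plus strand: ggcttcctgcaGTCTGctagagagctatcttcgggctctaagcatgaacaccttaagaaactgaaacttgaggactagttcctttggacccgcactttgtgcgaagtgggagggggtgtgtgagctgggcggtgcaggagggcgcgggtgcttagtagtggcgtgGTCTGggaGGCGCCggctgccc
CAGAC occurred 2 times each in the windows of Tgfb2, Ltbp2 and Tgfbi, and GGCGCC 1 time in that of Tgfbi. The windows of Tgfb1 and Inhbb held neither. Over all 32851 RefSeq windows of 250 bases, 42.2% held CAGAC and 9.59% held GGCGCC. Of the 3 genes with a match, Ltbp2 and Tgfbi rose and Tgfb2 fell in GFP-AL against GFP-Veh.

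The 3 TGF-beta ligands moved in different directions under the drugs. Tgfb1 (ENSMUSG00000002603, chromosome 7, 25687002 to 25705077, plus strand, GRCm38), the isoform made by many blood and vascular cells, had 17.3, 14.4, 22.2, 18.1 and 23.9 FPKM in LH3-AL libraries, 38.0, 44.0, 39.4, 40.6 and 31.7 in GFP-AL libraries and 15.3, 21.1, 17.7, 15.4 and 15.9 in GFP-Veh libraries. All 5 GFP-AL libraries lay above all libraries of both other groups. On the log2 scale Tgfb1 rose by 1.14 ± 0.13 (SE) in GFP-AL against GFP-Veh (limma adjusted p = 3.79e-05) and differed by -0.99 ± 0.13 in LH3-AL against GFP-AL (adjusted p = 1.73e-04). LH3-AL and GFP-Veh differed by 0.15, with a 95% interval of -0.14 to 0.43.

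Tgfb2 (ENSMUSG00000039239, chromosome 1, 186622792 to 186705989, minus strand), an isoform with prominent roles in heart and vessel development, had 20.4, 16.4, 11.3, 11.5 and 10.9 FPKM in LH3-AL libraries, 6.27, 3.73, 4.24, 5.62 and 4.69 in GFP-AL libraries and 6.74, 9.26, 13.7, 10.9 and 9.64 in GFP-Veh libraries. Here the GFP-AL libraries were the lowest of all 15, and LH3-AL replicates 1 and 2 were the highest. It fell in GFP-AL against GFP-Veh, at -0.89 ± 0.19 (adjusted p = 0.00319), and was higher in LH3-AL than in GFP-AL by 1.33 ± 0.19 (adjusted p = 2.84e-04). Against GFP-Veh, LH3-AL stood at 0.44 ± 0.19 with an unadjusted p of 0.0353, which missed the threshold after adjustment (0.509).

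Tgfb3, the third isoform, had 15.0, 12.4, 17.9, 17.5 and 11.6 FPKM in LH3-AL libraries, 10.9, 14.9, 9.73, 13.6 and 19.1 in GFP-AL libraries and 20.2, 20.1, 19.2, 19.1 and 19.5 in GFP-Veh libraries. Its GFP-Veh values were tightly grouped and lay above all LH3-AL values, but GFP-AL replicate 5 reached into the GFP-Veh range. It fell in GFP-AL against GFP-Veh by 0.53 ± 0.16 (adjusted p = 0.0195), a call lost without GFP-AL replicate 3 (0.0515), with log2 depth in the model (0.0587) and without the 3 libraries that stood apart (0.0922). Unlike Tgfb1 and Tgfb2 it was not called in LH3-AL against GFP-AL (0.13 ± 0.16, adjusted p = 0.540). LH3-AL stood -0.40 ± 0.16 from GFP-Veh, not past the threshold (adjusted p = 0.437).

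FPKM corrects for gene length, so the isoforms can be set beside each other within a library. Tgfb1 made up 39.9 ± 7.75% in LH3-AL, 67.6 ± 6.28% in GFP-AL and 36.4 ± 3.09% in GFP-Veh of the summed level of the 3 isoforms (SD, n = 5). The GFP-AL libraries ran from 57.1% to 73.8% and overlapped neither LH3-AL (32.9% to 51.6%) nor GFP-Veh (33.9% to 41.8%). The share of Tgfb2 was 29.3 ± 8.29% in LH3-AL, 8.62 ± 1.98% in GFP-AL and 21.4 ± 4.42% in GFP-Veh. The summed level itself was 48.2 ± 3.92 FPKM in LH3-AL, 57.3 ± 3.82 in GFP-AL and 46.7 ± 3.68 in GFP-Veh. Tgfb3 thus held the largest mean share in GFP-Veh, at 42.2%, and Tgfb1 the largest in the other two groups.

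**Figure D2:**
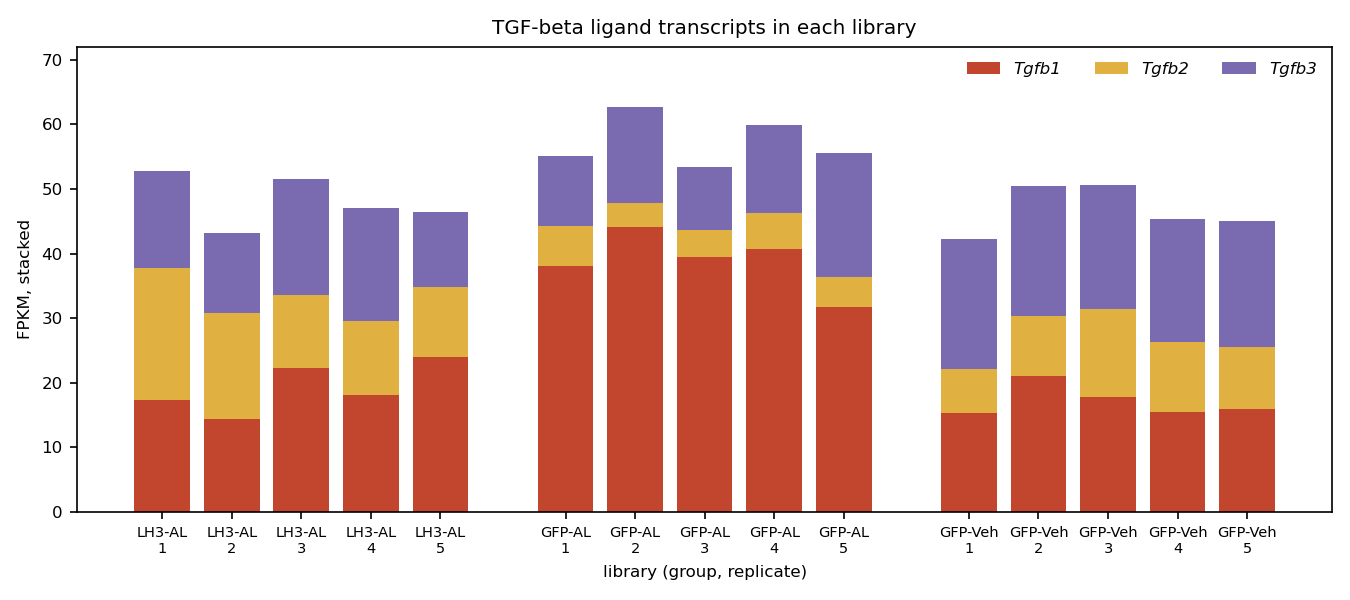
FPKM of Tgfb1, Tgfb2 and Tgfb3 (vertical axis, stacked) in each of the 15 libraries (horizontal axis, by group and replicate). The Tgfb1 segment is 31.7 to 44.0 FPKM in the 5 GFP-AL libraries and 14.4 to 23.9 FPKM in the other 10, while the Tgfb2 segment is smallest in GFP-AL.

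The largest change among the 48 genes was that of Inhbb (ENSMUSG00000037035, chromosome 1, 119415465 to 119422248, minus strand), which encodes the beta-B subunit of activin B and inhibin B. It had 1.11, 1.55, 0.738, 0.812 and 1.08 FPKM in LH3-AL libraries, 6.41, 19.8, 15.0, 12.6 and 6.71 in GFP-AL libraries and 1.02, 1.20, 1.06, 1.41 and 1.53 in GFP-Veh libraries. The lowest GFP-AL library was at 6.41 FPKM and the highest library of the other groups at 1.55. Inhbb rose by 2.44 ± 0.24 in GFP-AL against GFP-Veh (limma adjusted p = 1.41e-05) and was at -2.57 ± 0.24 in LH3-AL against GFP-AL (adjusted p = 1.55e-05). The estimates of LH3-AL and GFP-Veh lay -0.13 apart, with an interval of -0.63 to 0.37. Inhba, the beta-A subunit, was too low for the test, at 0.0596 to 0.338 FPKM in LH3-AL, 0.0904 to 1.56 in GFP-AL and 0.00253 to 0.396 in GFP-Veh, and its highest value came from GFP-AL replicate 2.

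The BMP ligands split in the same comparisons. Bmp2, a BMP that endothelium makes under inflammatory stimuli, had 4.40, 3.80, 2.81, 1.86 and 1.85 FPKM in LH3-AL libraries, 3.92, 5.08, 5.14, 7.47 and 4.66 in GFP-AL libraries and 2.96, 3.05, 2.96, 2.82 and 2.67 in GFP-Veh libraries. GFP-AL lay above GFP-Veh throughout, and LH3-AL replicate 1 reached above the lowest GFP-AL library. Bmp2 rose by 0.66 ± 0.18 in GFP-AL against GFP-Veh (limma adjusted p = 0.0116) and differed by -0.69 ± 0.18 in LH3-AL against GFP-AL (adjusted p = 0.0105).

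Bmp5, a BMP of the same subgroup as Bmp6 and Bmp7, had 7.23, 6.03, 6.11, 6.30 and 5.17 FPKM in LH3-AL libraries, 4.71, 2.81, 3.75, 5.10 and 4.73 in GFP-AL libraries and 5.87, 5.10, 6.27, 5.56 and 5.64 in GFP-Veh libraries. It was higher in LH3-AL than in GFP-AL by 0.47 ± 0.12 (adjusted p = 0.0110), with no overlap between those groups. Its fall in GFP-AL against GFP-Veh (-0.37 ± 0.12, limma adjusted p = 0.0314) was weak. The highest GFP-AL library (5.0958 FPKM) lay barely below the lowest GFP-Veh library (5.0963 FPKM). The adjusted p rose to between 0.0555 and 0.0702 when GFP-Veh replicate 1, 3, 4 or 5 or GFP-AL replicate 2 or 3 was left out. It rose to 0.0778 with median-of-ratios scaling and to 0.131 with log2 depth in the model.

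Bmp6, the most abundant of the 5 BMP genes and known from liver endothelium as a regulator of iron balance, had 41.2, 39.4, 35.3, 38.9 and 27.4 FPKM in LH3-AL libraries, 32.8, 17.2, 27.5, 26.3 and 25.4 in GFP-AL libraries and 31.5, 37.6, 29.6, 35.4 and 32.7 in GFP-Veh libraries. It was higher in LH3-AL than in GFP-AL by 0.49 ± 0.15 (adjusted p = 0.0226), although LH3-AL replicate 5 fell inside the GFP-AL range. Its difference in the drug comparison (-0.38 ± 0.15, adjusted p = 0.0667) passed when GFP-AL replicate 1 was omitted (0.0274). The call between LH3-AL and GFP-AL was lost without LH3-AL replicate 1 (0.0585), 2 (0.0517) or 4 (0.0535) and without the 3 libraries that stood apart (0.0720). Bmp7 and Bmp4 passed in no comparison of the main test. Bmp7 ran from 16.0 to 26.4 FPKM in LH3-AL, 18.0 to 23.5 in GFP-AL and 15.8 to 24.3 in GFP-Veh. Bmp4 ran from 7.78 to 12.8 FPKM in LH3-AL, 7.46 to 11.5 in GFP-AL and 2.55 to 10.2 in GFP-Veh, and its difference of 0.52 ± 0.24 in GFP-AL against GFP-Veh passed with log2 depth in the model (0.0188) or when GFP-Veh replicate 2 was omitted (0.0465). The 5 BMP genes summed to 78.5 ± 11.7 FPKM in LH3-AL, 66.2 ± 8.04 in GFP-AL and 67.7 ± 7.96 in GFP-Veh.

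**Figure D3:**
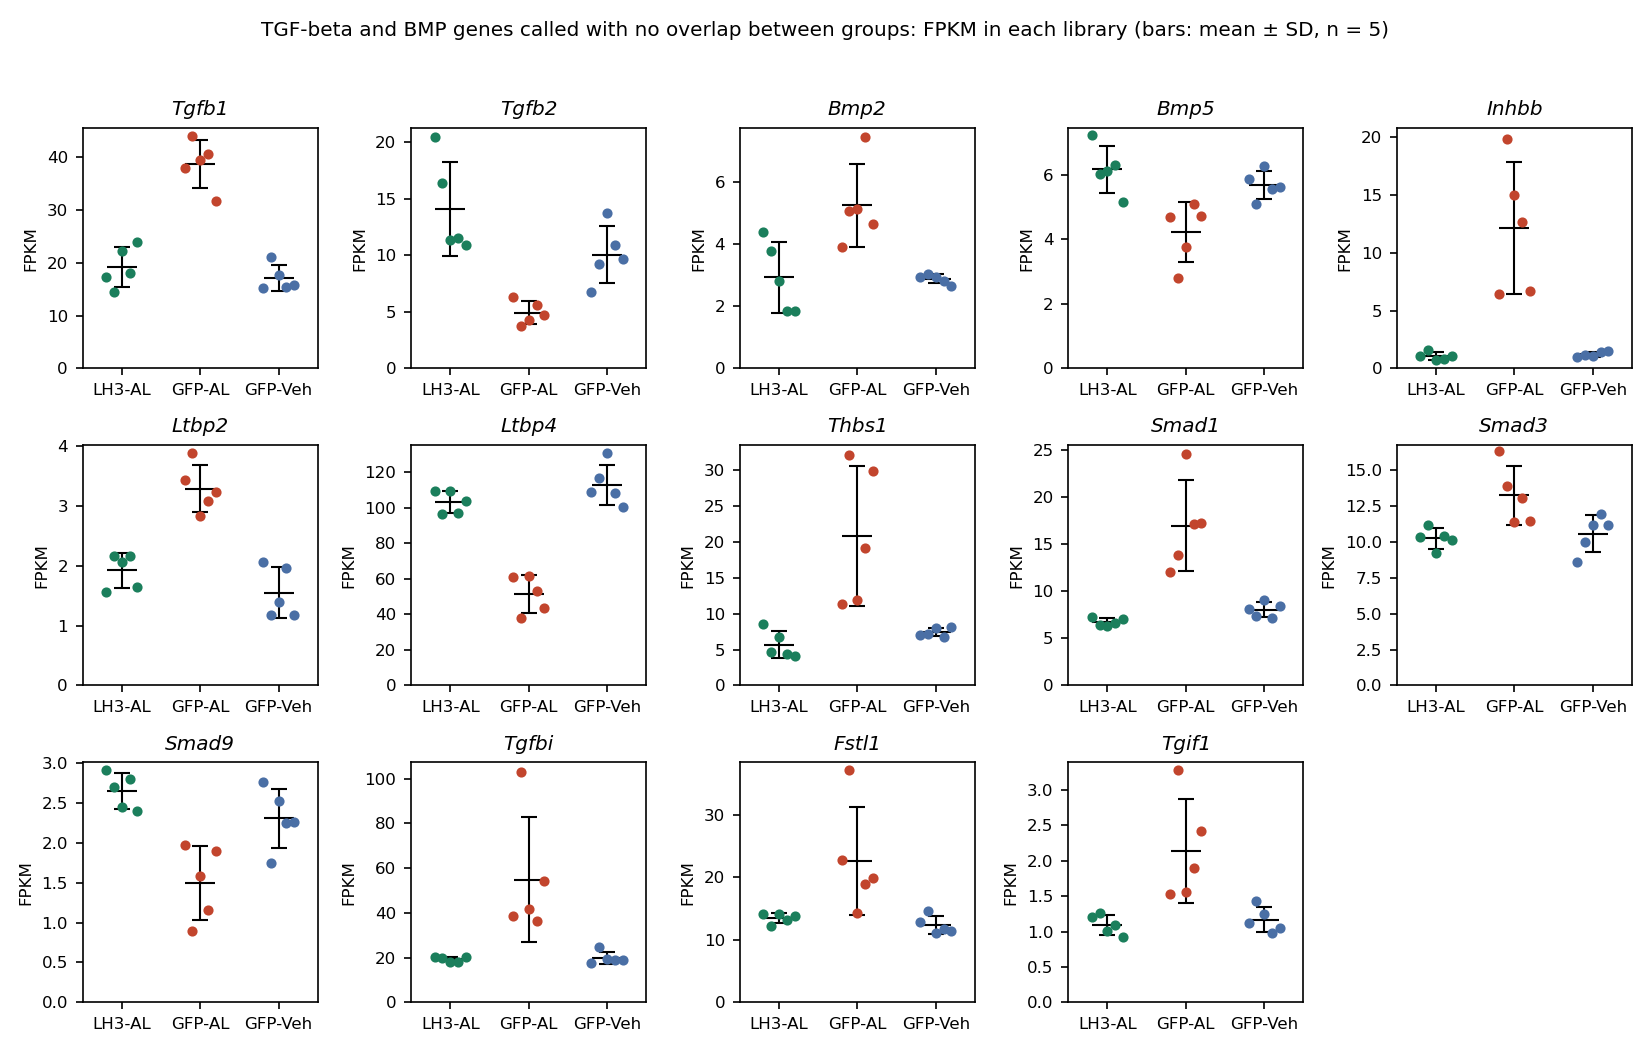
FPKM (vertical axes, each from 0) of the 14 genes that were called in at least 1 comparison with no overlap between its groups, in the libraries of LH3-AL, GFP-AL and GFP-Veh (points; bars are the mean ± SD, n = 5). GFP-AL is the highest group for Tgfb1, Inhbb, Ltbp2, Thbs1, Smad1, Tgfbi and Tgif1 and the lowest for Tgfb2, Bmp5 and Ltbp4. For these genes it overlaps neither other group, though the margin between GFP-AL and GFP-Veh is very small for Bmp5.

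Among the 4 genes of the latent TGF-beta binding protein family, Ltbp4 and Ltbp2 went opposite ways. Ltbp4 (ENSMUSG00000040488, chromosome 7, 27305136 to 27337692, minus strand), the most abundant of the 4 and a protein also needed for elastic fibres, had 109, 96.6, 109, 97.0 and 104 FPKM in LH3-AL libraries, 61.1, 37.8, 61.8, 53.2 and 43.5 in GFP-AL libraries and 109, 117, 131, 108 and 101 in GFP-Veh libraries. Every GFP-AL library was below every other library. It fell in GFP-AL against GFP-Veh, at -1.14 ± 0.13 (adjusted p = 2.74e-05), and was 1.01 ± 0.13 higher in LH3-AL than in GFP-AL (adjusted p = 1.03e-04). A second row of the table carries this symbol with a low level and was added to the first.

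Ltbp2 (ENSMUSG00000002020, chromosome 12, 84783212 to 84876532, minus strand), the member of the family that is known not to bind latent TGF-beta, had 1.57, 2.17, 2.06, 2.16 and 1.65 FPKM in LH3-AL libraries, 3.43, 3.88, 2.84, 3.08 and 3.24 in GFP-AL libraries and 2.06, 1.17, 1.40, 1.96 and 1.17 in GFP-Veh libraries. All GFP-AL values exceeded all others, at a level far below that of Ltbp4. The difference was 0.76 ± 0.12 in GFP-AL against GFP-Veh (limma adjusted p = 3.38e-04) and -0.56 ± 0.12 in LH3-AL against GFP-AL (adjusted p = 0.00373). Ltbp1 and Ltbp3 were called in neither. Ltbp3, at -0.46 ± 0.17 in GFP-AL against GFP-Veh, lay just outside the threshold (adjusted p = 0.0506) and passed when GFP-Veh replicate 3 or GFP-AL replicate 1, 2 or 5 was omitted (0.0370 to 0.0471). Ltbp1 passed in both comparisons without GFP-AL replicate 4, at 0.0121 against GFP-Veh and 0.0215 for LH3-AL against GFP-AL. The 4 Ltbp genes together summed to 132 ± 4.53 FPKM in LH3-AL, 75.8 ± 9.12 in GFP-AL and 144 ± 7.83 in GFP-Veh.

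Thbs1 (ENSMUSG00000040152, chromosome 2, 118111876 to 118127133, plus strand), thrombospondin 1, which can release TGF-beta from its latent complex, had 8.51, 4.72, 6.80, 4.31 and 4.11 FPKM in LH3-AL libraries, 11.3, 32.1, 11.9, 19.2 and 29.9 in GFP-AL libraries and 7.07, 7.16, 7.99, 6.81 and 8.15 in GFP-Veh libraries. GFP-AL replicates 2 and 5 were the highest and replicates 1 and 3 the lowest of their group, all above both other groups. It rose by 1.26 ± 0.26 in GFP-AL against GFP-Veh (limma adjusted p = 0.00250) and was at -1.63 ± 0.26 in LH3-AL against GFP-AL (adjusted p = 5.35e-04). LH3-AL differed from GFP-Veh by -0.38 ± 0.26, an interval of -0.93 to 0.18.

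No receptor or co-receptor of the 11 was called in any comparison. The endothelial BMP receptor Acvrl1 had 91.9, 76.3, 119, 106 and 131 FPKM in LH3-AL libraries, 107, 124, 96.6, 124 and 103 in GFP-AL libraries and 99.6, 122, 117, 92.5 and 94.0 in GFP-Veh libraries. Its 3 groups overlapped, and its difference in GFP-AL against GFP-Veh was 0.08, with a 95% interval of -0.22 to 0.38. Endoglin (Eng), its co-receptor, was also abundant, with 152, 128, 170.3, 139.5 and 186 FPKM in LH3-AL libraries, 134, 196, 161, 150.3 and 138 in GFP-AL libraries and 146, 173, 176, 145 and 139 in GFP-Veh libraries. Its interval was -0.27 to 0.27 in GFP-AL against GFP-Veh and -0.28 to 0.26 in LH3-AL against GFP-AL. Quantile normalization turned the second difference to 0.30 and into a call (adjusted p = 0.0333).

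Tgfbr2, the TGF-beta type II receptor, averaged 112 ± 17.4 FPKM in LH3-AL, 98.6 ± 19.5 in GFP-AL and 87.2 ± 8.77 in GFP-Veh (SD, n = 5). LH3-AL stood 0.34 ± 0.14 above GFP-Veh, with an unadjusted p of 0.0255 that did not survive adjustment (0.465). Its difference between LH3-AL and GFP-AL passed with quantile normalization alone (adjusted p = 0.0428). Its partner Tgfbr1 and the co-receptor Tgfbr3 averaged 6.65 and 16.3 FPKM over all libraries. Bmpr2, whose loss causes human pulmonary arterial hypertension, averaged 28.7 ± 4.98 FPKM in LH3-AL, 22.1 ± 3.42 in GFP-AL and 24.2 ± 6.11 in GFP-Veh.

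For 4 receptors the omission of 1 library gave a call. Bmpr1a, at -0.33 ± 0.12 in GFP-AL against GFP-Veh (limma adjusted p = 0.0563), passed when GFP-Veh replicate 2 was omitted (0.0283), and likewise for GFP-AL replicate 5 (0.0227). In LH3-AL against GFP-AL it stood at 0.33 ± 0.12 (adjusted p = 0.0593) and passed without GFP-AL replicate 5 (0.0253) or LH3-AL replicate 5 (0.0447). Acvr1, ALK2, differed between GFP-AL and GFP-Veh by -0.30 ± 0.11 (adjusted p = 0.0643) and passed without GFP-AL replicate 3 (0.0284) or 5 (0.0445). Acvr2a, at -0.22 ± 0.13 (adjusted p = 0.211), lay farther from the threshold and passed without GFP-Veh replicate 2 (0.0473). Bmpr2, at 0.36 ± 0.17 in LH3-AL against GFP-AL (adjusted p = 0.118), passed without LH3-AL replicate 2 (0.0466). Acvr1b and Acvr2b averaged 9.51 and 1.01 FPKM over all libraries and passed under no setting tried.

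Of the 8 SMAD genes, Smad1 and Smad9 were called in both comparisons and Smad3 in LH3-AL against GFP-AL. Smad1 (ENSMUSG00000031681, chromosome 8, 79338395 to 79399518, minus strand), a BMP-responsive SMAD, had 7.25, 6.37, 6.32, 6.60 and 7.04 FPKM in LH3-AL libraries, 11.98, 13.9, 24.6, 17.1 and 17.3 in GFP-AL libraries and 8.13, 7.39, 9.03, 7.19 and 8.45 in GFP-Veh libraries. Every GFP-AL library exceeded every other library. Smad1 rose by 0.96 ± 0.14 in GFP-AL against GFP-Veh (limma adjusted p = 2.09e-04) and was at -1.18 ± 0.14 in LH3-AL against GFP-AL (adjusted p = 7.53e-05).

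Smad9, which belongs to the same BMP branch and signals weakly, had 2.91, 2.70, 2.45, 2.80 and 2.39 FPKM in LH3-AL libraries, 1.97, 0.898, 1.59, 1.15 and 1.89 in GFP-AL libraries and 2.76, 1.75, 2.52, 2.24 and 2.25 in GFP-Veh libraries. It ran the other way from Smad1: LH3-AL was above GFP-AL throughout, by 0.57 ± 0.13 (adjusted p = 0.00486). Its fall in GFP-AL against GFP-Veh (-0.42 ± 0.13, limma adjusted p = 0.0232) was lost without GFP-Veh replicate 1 (0.0617) or 3 (0.0521) and without GFP-AL replicate 2 (0.0509) or 4 (0.0530). The call was also lost with quantile normalization (0.0911) and with log2 depth in the model (0.132). The third BMP SMAD, Smad5, had 6.53, 5.60, 5.89, 5.58 and 5.72 FPKM in LH3-AL libraries, 4.55, 4.61, 0.651, 5.70 and 2.89 in GFP-AL libraries and 6.14, 4.42, 6.84, 6.15 and 2.85 in GFP-Veh libraries and was called in neither; without GFP-AL replicate 4 it passed in LH3-AL against GFP-AL (0.0453).

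On the TGF-beta and activin branch, Smad3 had 10.4, 11.2, 9.21, 10.4 and 10.1 FPKM in LH3-AL libraries, 16.4, 13.9, 11.4, 13.1 and 11.5 in GFP-AL libraries and 8.61, 10.0, 11.2, 11.9 and 11.2 in GFP-Veh libraries. LH3-AL lay below GFP-AL in all libraries, by a narrow margin, at -0.33 ± 0.11 (adjusted p = 0.0322). The adjusted p rose above the threshold without GFP-AL replicate 1 (0.0707) or 2 (0.0609), without LH3-AL replicate 1, 3, 4 or 5 (0.0549 to 0.0745), and with the replicate block (0.0521). In GFP-AL against GFP-Veh it missed narrowly (0.29 ± 0.11, adjusted p = 0.0517) and passed with median-of-ratios scaling (0.0110), and when GFP-Veh replicate 4 (0.0489), GFP-AL replicate 3 (0.0354) or GFP-AL replicate 5 (0.0350) was omitted. Smad2, its partner on this branch, ran from 2.57 to 3.53 FPKM in LH3-AL, 2.99 to 3.89 in GFP-AL and 2.92 to 4.29 in GFP-Veh. Smad4, common to both branches, ran from 10.6 to 13.3 FPKM in LH3-AL, 10.3 to 13.1 in GFP-AL and 10.8 to 12.3 in GFP-Veh.

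The inhibitory SMADs, which the pathway induces as negative feedback, were uneven. Smad6 had 14.6, 16.2, 21.2, 16.9 and 28.2 FPKM in LH3-AL libraries, 20.4, 27.9, 60.4, 14.3 and 12.4 in GFP-AL libraries and 20.7, 18.3, 18.6, 13.1 and 13.1 in GFP-Veh libraries. Its value in GFP-AL replicate 3 was the highest of all 15 libraries and that in GFP-AL replicate 5 the lowest. GFP-AL replicates 1, 2 and 4 lay within the combined range of the other groups, 13.1 to 28.2 FPKM. Smad7 had 12.5, 3.92, 16.5, 15.5 and 28.1 FPKM in LH3-AL libraries, 15.7, 13.9, 13.1, 12.9 and 7.81 in GFP-AL libraries and 14.5, 12.1, 15.1, 12.5 and 12.6 in GFP-Veh libraries. LH3-AL held both the lowest and the highest Smad7 value, replicates 2 and 5, and the intervals of the group differences were wide (-0.63 to 0.78 in LH3-AL against GFP-AL). The interval for Smad6 in GFP-AL against GFP-Veh was also wide, at -0.24 to 1.14, and Smad6 was called in no comparison.

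Target genes of the pathway did not share a course. Tgfbi (ENSMUSG00000035493, chromosome 13, 56609523 to 56639562, plus strand), a secreted matrix protein named for its induction by TGF-beta and the 1 gene shown above with both SMAD boxes, had 20.4, 19.7, 18.2, 18.2 and 20.3 FPKM in LH3-AL libraries, 38.4, 103, 41.9, 36.2 and 54.1 in GFP-AL libraries and 17.5, 24.6, 19.2, 18.8 and 19.1 in GFP-Veh libraries. GFP-AL replicate 2 was far above the other GFP-AL libraries, which were themselves all above both other groups. Tgfbi rose by 1.31 ± 0.21 in GFP-AL against GFP-Veh (limma adjusted p = 4.51e-04) and stood at -1.34 ± 0.21 in LH3-AL against GFP-AL (adjusted p = 5.47e-04). Without GFP-AL replicate 2 the rise was 1.06 (adjusted p = 4.27e-05).

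The Id genes, direct BMP targets that encode inhibitors of basic helix-loop-helix factors, include Id1, the most abundant of the 50. Id1 had 164, 144, 235, 194 and 249.6 FPKM in LH3-AL libraries, 206, 409, 516, 222 and 283 in GFP-AL libraries and 234, 328, 230.3, 211 and 173 in GFP-Veh libraries. GFP-AL replicates 2 and 3, the libraries that stood apart, were the highest, and GFP-AL replicates 1, 4 and 5 fell inside the range of GFP-Veh. The difference was 0.41 ± 0.25 in GFP-AL against GFP-Veh (limma adjusted p = 0.222) and -0.67 ± 0.25 in LH3-AL against GFP-AL (adjusted p = 0.0537). The second passed with median-of-ratios scaling (0.0480), without GFP-AL replicate 1 (0.0244) or 4 (0.0336) and without LH3-AL replicate 5 (0.0446).

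Id3 averaged 114 ± 12.6 FPKM in LH3-AL, 138 ± 42.9 in GFP-AL and 121 ± 28.8 in GFP-Veh, and Id2 50.2 ± 3.09 FPKM in LH3-AL, 57.6 ± 13.4 in GFP-AL and 57.2 ± 6.26 in GFP-Veh (SD, n = 5). Id3 passed nowhere, and Id2 passed only in LH3-AL against GFP-AL without GFP-AL replicate 4 (0.0252). Id4, which in the brain is also an astrocyte and progenitor gene, had 8.85, 15.6, 11.7, 12.5 and 12.9 FPKM in LH3-AL libraries, 13.7, 8.64, 8.93, 9.98 and 14.2 in GFP-AL libraries and 17.0, 13.7, 16.1, 17.7 and 20.9 in GFP-Veh libraries. It fell in GFP-AL against GFP-Veh by 0.60 ± 0.16 (adjusted p = 0.0120), with some overlap between the groups. It was not higher in LH3-AL than in GFP-AL by the test (0.15 ± 0.16, adjusted p = 0.508), and stood -0.45 ± 0.16 from GFP-Veh (adjusted p = 0.359, unadjusted p = 0.0129).

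**Figure D4:**
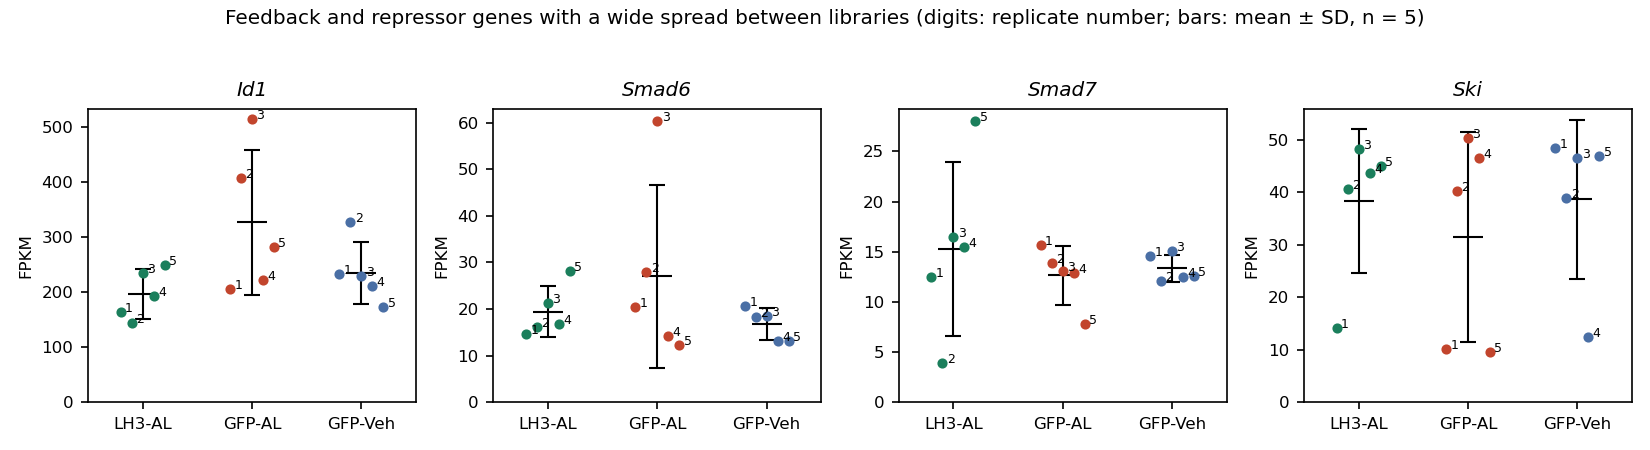
FPKM (vertical axes, each from 0) of Id1, Smad6, Smad7 and Ski in the libraries of LH3-AL, GFP-AL and GFP-Veh, with the replicate number beside each point and bars for the mean ± SD (n = 5). Id1 and Smad6 are highest in GFP-AL replicate 3, and Ski falls to between 9.61 and 14.2 FPKM in 4 libraries that belong to all 3 groups.

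Of the secreted antagonists, 1 was called. Fstl1, a follistatin-like glycoprotein that binds BMP4 and also acts in inflammation, had 14.1, 12.2, 14.1, 13.3 and 13.8 FPKM in LH3-AL libraries, 22.8, 37.2, 14.4, 19.0 and 19.9 in GFP-AL libraries and 12.8, 14.7, 11.2, 11.8 and 11.4 in GFP-Veh libraries. GFP-AL replicate 2 was the highest and replicate 3 just below the top of GFP-Veh. It rose by 0.76 ± 0.17 in GFP-AL against GFP-Veh (limma adjusted p = 0.00487) and was at -0.64 ± 0.17 in LH3-AL against GFP-AL (adjusted p = 0.0146).

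Htra1, the serine protease of small vessel disease, averaged 46.3 ± 7.01 FPKM in LH3-AL, 45.5 ± 10.7 in GFP-AL and 48.0 ± 8.32 in GFP-Veh, with an interval of -0.45 to 0.27 in GFP-AL against GFP-Veh. The BMP antagonists Nog and Grem1 were low, at 3.61 to 4.40 FPKM in LH3-AL, 2.69 to 6.11 in GFP-AL and 2.81 to 3.93 in GFP-Veh for Nog, and neither passed. Follistatin (Fst), the activin antagonist, lay at 0.122 to 0.259 FPKM in LH3-AL, 0.164 to 0.706 in GFP-AL and 1.14e-04 to 0.368 in GFP-Veh and was below the filter. Tested without the filter, Fst was called at 0.30 ± 0.09 (adjusted p = 0.0347) for GFP-AL against GFP-Veh and -0.30 ± 0.09 (adjusted p = 0.0388) in LH3-AL against GFP-AL, a value that rests on few reads, and Inhba was called in no comparison. Bambi, a pseudoreceptor without kinase activity, averaged 2.02 ± 0.572 FPKM in LH3-AL, 3.05 ± 1.29 in GFP-AL and 2.81 ± 0.576 in GFP-Veh and passed only with quantile normalization, in LH3-AL against GFP-AL (adjusted p = 0.0492).

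Among the nuclear repressors Tgif1 was called. It represses SMAD-driven transcription and had 1.21, 1.26, 1.01, 1.09 and 0.918 FPKM in LH3-AL libraries, 1.54, 3.28, 1.56, 1.90 and 2.42 in GFP-AL libraries and 1.12, 1.43, 1.25, 0.978 and 1.05 in GFP-Veh libraries, near the lower limit of the test. All GFP-AL values exceeded all others. The difference was 0.51 ± 0.13 in GFP-AL against GFP-Veh (limma adjusted p = 0.00971) and -0.55 ± 0.13 in LH3-AL against GFP-AL (adjusted p = 0.00695).

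Ski, a SMAD corepressor, had 14.2, 40.6, 48.2, 43.7 and 44.9 FPKM in LH3-AL libraries, 10.1, 40.3, 50.4, 46.6 and 9.61 in GFP-AL libraries and 48.4, 38.9, 46.4, 12.4 and 47.0 in GFP-Veh libraries. The low values were those of LH3-AL replicate 1, GFP-AL replicates 1 and 5 and GFP-Veh replicate 4, so they did not follow the groups, and the interval of the difference spanned -1.55 to 0.62 in GFP-AL against GFP-Veh. Skil, its relative and a target of TGF-beta, had 0.973, 0.460, 0.639, 0.599 and 0.728 FPKM in LH3-AL libraries, 2.78, 2.71, 0.415, 0.599 and 0.573 in GFP-AL libraries and 1.22, 3.42, 1.62, 1.14 and 0.837 in GFP-Veh libraries. Its groups overlapped and it passed nowhere. The ubiquitin ligases Smurf1 and Smurf2, which mark SMADs and receptors for degradation, averaged 8.92 and 12.3 FPKM over all libraries, and Smurf2 passed in GFP-AL against GFP-Veh only without GFP-Veh replicate 2 (0.0279).

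Other genes of the pathway were described from a list of 112, of which 84 were tested. In GFP-AL against GFP-Veh 14 were higher and 14 lower. LH3-AL had 15 higher and 17 lower when set against GFP-AL, and 1 lower when set against GFP-Veh. The percentages were 33.3%, 38.1% and 1.19%, beside 28.6%, 28.5% and 0.52% of all genes.

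A textbook list of TGF-beta response genes held 21 tested genes. It was chosen with earlier results of these data known, so its shares are not independent support. In GFP-AL against GFP-Veh 5 were higher and 2 lower, and in LH3-AL against GFP-AL 3 were higher and 7 lower. That is 33.3% and 47.6%, beside 28.6% and 28.5% of all genes. The 5 were Lox, Ctgf, Snai1, Junb and the fibronectin gene Fn1, and Fn1 was not called in LH3-AL against GFP-AL. Ctgf, a matricellular growth factor, averaged 45.5 ± 20.1 FPKM in LH3-AL, 121 ± 28.5 in GFP-AL and 36.7 ± 7.17 in GFP-Veh (SD, n = 5), at 1.68 ± 0.26 in GFP-AL against GFP-Veh (limma adjusted p = 3.07e-04) and -1.48 ± 0.26 in LH3-AL against GFP-AL (adjusted p = 0.00108). The collagen cross-linker Lox averaged 2.84 ± 0.567 FPKM in LH3-AL, 6.94 ± 1.14 in GFP-AL and 2.63 ± 0.265 in GFP-Veh, and passed in both comparisons. Acta2, smooth muscle actin, averaged 314 ± 63.0 FPKM in LH3-AL, 285 ± 35.2 in GFP-AL and 359 ± 83.4 in GFP-Veh and passed in neither comparison, nor did Col1a1, Col1a2, Col3a1, Tagln or Cnn1, all chosen for mention after their values were seen.

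The lower response genes were Itgb3, an integrin subunit, and Snai2, a transcriptional repressor. Itgb3 averaged 3.61 ± 0.711 FPKM in LH3-AL, 1.17 ± 0.133 in GFP-AL and 2.68 ± 0.295 in GFP-Veh, at -0.76 ± 0.10 in GFP-AL against GFP-Veh (limma adjusted p = 1.25e-04). Snai2 averaged 4.38 ± 0.774 FPKM in LH3-AL, 2.54 ± 0.974 in GFP-AL and 4.94 ± 0.706 in GFP-Veh, at -0.79 ± 0.17 (adjusted p = 0.00319). The single gene of the 84 called in LH3-AL against GFP-Veh was Cdkn1a, the cell cycle inhibitor p21, which averaged 73.7 ± 19.5 FPKM in LH3-AL, 229.8 ± 97.0 in GFP-AL and 173 ± 47.0 in GFP-Veh (-1.22 ± 0.25, adjusted p = 0.0437).

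**Figure D5:**
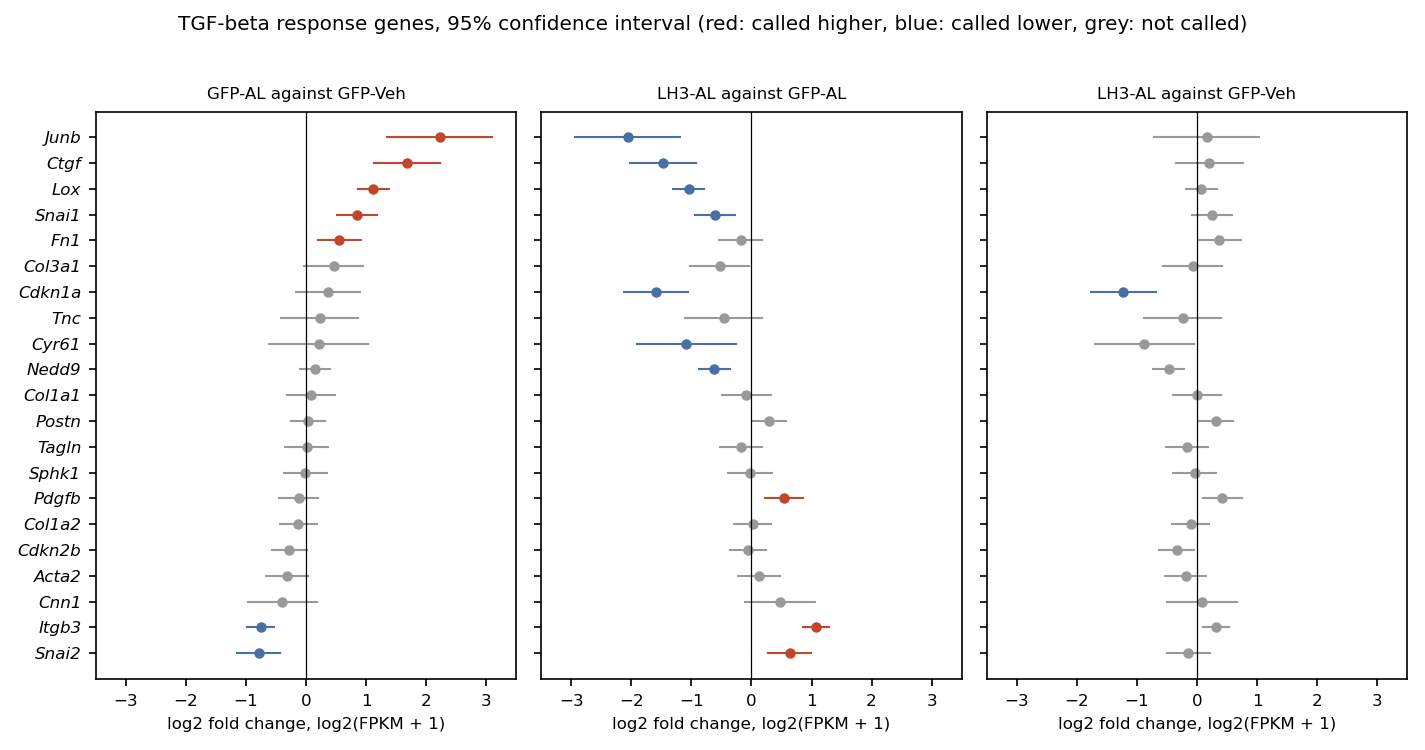
Log2 fold change on the log2(FPKM + 1) scale (horizontal axis) of 21 TGF-beta response genes (rows, ordered by GFP-AL against GFP-Veh) in 3 comparisons, with 95% confidence intervals from limma. Junb, Ctgf, Lox and Snai1 are called higher in GFP-AL against GFP-Veh and lower in LH3-AL against GFP-AL, and Acta2, Tagln and the collagen genes are grey in all 3 panels.

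Extracellular regulators outside the 50 were lower at 5 and higher at 2 of 17 tested in GFP-AL against GFP-Veh, and higher at 5 and lower at 1 in LH3-AL against GFP-AL. Sostdc1, a BMP and Wnt antagonist that the choroid plexus also makes, averaged 18.9 ± 4.05 FPKM in LH3-AL, 3.995 ± 1.33 in GFP-AL and 27.3 ± 7.03 in GFP-Veh. Aspn, a proteoglycan that binds TGF-beta, averaged 17.9 ± 2.09 FPKM in LH3-AL, 9.36 ± 4.54 in GFP-AL and 20.5 ± 1.73 in GFP-Veh, and Dand5, a nodal antagonist, 7.07 ± 0.326 FPKM in LH3-AL, 4.75 ± 0.891 in GFP-AL and 7.18 ± 1.38 in GFP-Veh. All 3 were called lower in GFP-AL than in GFP-Veh and higher in LH3-AL than in GFP-AL. Fstl3, a follistatin relative, was called higher in GFP-AL than in GFP-Veh (0.61 ± 0.14, adjusted p = 0.00411).

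Furin, the convertase that cleaves the TGF-beta precursor, averaged 11.6 ± 1.59 FPKM in LH3-AL, 19.6 ± 2.96 in GFP-AL and 10.3 ± 0.650 in GFP-Veh and passed in both comparisons. Itgav, the alpha-V integrin chain that pulls on the latent complex, averaged 6.06 ± 0.656 FPKM in LH3-AL, 1.22 ± 0.429 in GFP-AL and 5.83 ± 1.11 in GFP-Veh, at -1.63 ± 0.14 in GFP-AL against GFP-Veh (limma adjusted p = 6.04e-06) and 1.69 ± 0.14 in LH3-AL against GFP-AL (adjusted p = 7.00e-06). Of its partners on the list, Itgb8 stood at -0.64 ± 0.18 (adjusted p = 0.0133) and 0.61 ± 0.18 (adjusted p = 0.0196) in the same order. Itgb5 averaged 34.3 ± 2.66 FPKM in LH3-AL, 31.3 ± 2.06 in GFP-AL and 34.5 ± 1.70 in GFP-Veh and was called in neither (-0.14 ± 0.08, adjusted p = 0.203, and 0.13 ± 0.08, adjusted p = 0.234).

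Of the ligands outside the 50, 5 were tested. Gdf11 was the 1 called in GFP-AL against GFP-Veh, 20% beside 28.6% of all genes. It averaged 8.94 ± 0.978 FPKM in LH3-AL, 3.84 ± 1.46 in GFP-AL and 9.52 ± 0.879 in GFP-Veh and was lower in GFP-AL than in GFP-Veh (-1.17 ± 0.17, adjusted p = 1.78e-04). Of 9 other receptors and co-receptors tested, 2 were higher and 4 lower in GFP-AL against GFP-Veh, and 4 higher and 3 lower in LH3-AL against GFP-AL. Lrrc32 (GARP), which displays latent TGF-beta on the cell surface, averaged 10.3 ± 4.19 FPKM in LH3-AL, 48.5 ± 26.5 in GFP-AL and 18.0 ± 3.91 in GFP-Veh, with 1.20 ± 0.35 in GFP-AL against GFP-Veh (limma adjusted p = 0.0190) and -1.99 ± 0.35 in LH3-AL against GFP-AL (adjusted p = 0.00108). Its relative Nrros averaged 1.70 ± 0.793 FPKM in LH3-AL, 3.01 ± 0.415 in GFP-AL and 2.57 ± 0.335 in GFP-Veh and was called in LH3-AL against GFP-AL (-0.63 ± 0.19, adjusted p = 0.0231) and not between GFP-AL and GFP-Veh (0.17 ± 0.19, adjusted p = 0.532). The TGF-beta co-receptor Cd109 was called higher in GFP-AL than in GFP-Veh (0.72 ± 0.13, limma adjusted p = 9.35e-04). It averaged 0.923 FPKM in LH3-AL, 2.36 in GFP-AL and 1.02 in GFP-Veh. Cd109 thus met the filter of 1 FPKM through its GFP-AL level, and its call is not support for a rise there. The semaphorin and VEGF co-receptor Nrp1 was lower in GFP-AL than in GFP-Veh (-1.08 ± 0.21, limma adjusted p = 0.00192). The BMP type I receptor Bmpr1b (-0.71 ± 0.18), the BMP co-receptor Rgma (-0.51 ± 0.15) and its receptor Neo1 (-0.46 ± 0.13) were also called lower in GFP-AL than in GFP-Veh, and higher in LH3-AL than in GFP-AL (0.51, 0.63 and 0.49).

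Among intracellular regulators Fkbp1a, an immunophilin that holds type I receptors inactive, averaged 31.1 ± 14.8 FPKM in LH3-AL, 83.5 ± 22.6 in GFP-AL and 15.5 ± 5.70 in GFP-Veh and rose by 2.37 ± 0.31 in GFP-AL against GFP-Veh (limma adjusted p = 8.33e-05). The phosphatase Ppm1a rose by 0.43 ± 0.11 (adjusted p = 0.00750), and the SMAD adaptors Sptbn1 (-0.60 ± 0.17) and Zfyve16 (-0.41 ± 0.13) were called lower. The list held 24 tested genes, of which 2 were higher and 2 lower in GFP-AL against GFP-Veh and likewise in LH3-AL against GFP-AL. That is 16.7% in each, below the 28.6% and 28.5% of all genes.

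Endothelial BMP response genes were higher at 3 of 8 in GFP-AL against GFP-Veh and lower at 4 of 8 in LH3-AL against GFP-AL. That is 37.5% and 50% called, beside 28.6% and 28.5% of all genes. Only 1 and 2 of these calls came with no overlap between the groups, beside 16% and 17.5% of all genes. Those higher in GFP-AL were Gja4 and Gja5, which encode arterial gap junction proteins, and the Notch ligand Dll4, a gene also controlled by other signals. Gja4 averaged 42.3 ± 3.15 FPKM in LH3-AL, 78.1 ± 27.3 in GFP-AL and 39.1 ± 9.76 in GFP-Veh, Gja5 1.83 ± 0.874 FPKM in LH3-AL, 3.81 ± 1.65 in GFP-AL and 1.36 ± 0.452 in GFP-Veh and Dll4 24.2 ± 6.00 FPKM in LH3-AL, 58.9 ± 14.9 in GFP-AL and 38.1 ± 5.46 in GFP-Veh (SD, n = 5). Tmem100, an ALK1-dependent endothelial gene, averaged 23.1 ± 5.83 FPKM in LH3-AL, 58.2 ± 39.5 in GFP-AL and 38.3 ± 5.72 in GFP-Veh and was called lower in LH3-AL than in GFP-AL (-1.13 ± 0.29, adjusted p = 0.0113).

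Markers of several cell types were called beside these genes, and their counts are to be read against all genes. In GFP-AL against GFP-Veh 10.8% of all genes were called higher and 17.7% lower, in LH3-AL against GFP-AL 17% and 11.4%, and in LH3-AL against GFP-Veh 0.145% and 0.375%. Microglia and macrophage markers were higher at 6 of 11 tested in GFP-AL against GFP-Veh and lower at 7 in LH3-AL against GFP-AL. The summed level of the 12 was 142 to 163 FPKM in LH3-AL, 236 to 323 in GFP-AL and 110.1 to 191 in GFP-Veh. Choroid plexus markers were lower at 8 of 11 and oligodendrocyte markers at 7 of 10 in GFP-AL against GFP-Veh. They were higher at 8 and 5 in LH3-AL against GFP-AL. Choroid plexus sums were 3331 to 5513 FPKM in LH3-AL, 2091 to 3237 in GFP-AL and 3906 to 9476 in GFP-Veh, and oligodendrocyte sums 491 to 1091 FPKM in LH3-AL, 342 to 896 in GFP-AL and 698 to 1045 in GFP-Veh.

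Red cell markers were higher at 7 of 7 in GFP-AL against GFP-Veh and at 3 of 7 in LH3-AL against GFP-Veh, where all 7 lay without overlap above GFP-Veh and their median log2 fold change was 1.86. In LH3-AL against GFP-AL 0 of 7 was called, and 0 had an unadjusted p below 0.05. Their sums were 4774 to 10139 FPKM in LH3-AL, 3874 to 19348 in GFP-AL and 1471 to 3864 in GFP-Veh. No other marker list had a call in LH3-AL against GFP-Veh.

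Endothelial markers were higher at 6 and lower at 3 of 14 in GFP-AL against GFP-Veh, and higher at 1 and lower at 4 in LH3-AL against GFP-AL. Astrocyte markers were higher at 1 and lower at 3 of 9 in GFP-AL against GFP-Veh, and higher at 1 and lower at 1 in LH3-AL against GFP-AL. Neuron markers had 0 of 10 called in GFP-AL against GFP-Veh, where 2 had an unadjusted p below 0.05, and 2 of 10 higher in LH3-AL against GFP-AL. Pericyte, smooth muscle and fibroblast markers lay near or below the shares of all genes. They were lower at 2 of 9, 2 of 10 and 1 of 9 in GFP-AL against GFP-Veh, and higher at 2, 1 and 1 in LH3-AL against GFP-AL. Pericyte sums were 1354 to 1681 FPKM in LH3-AL, 849.8 to 1439 in GFP-AL and 1414 to 1788 in GFP-Veh. No marker of these lists was below 0.1 FPKM in all libraries. The part of these cell types in the changes of the pathway genes was not tested.

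The authors' deposited tables of differential genes hold 8 and 9 of the 50 genes, past an absolute log2 fold change of 1 and a q-value of 0.05. In the authors' deposited table for GFP-AL against GFP-Veh, Inhbb stood at 3.27, Thbs1 at 1.48, Tgfbi at 1.47, Tgfb1 at 1.18, Ltbp2 at 1.09, Smad1 at 1.07, Tgfb2 at -1.03 and Ltbp4 at -1.16. The authors' other deposited table is named for LH3-AL against GFP-Veh, but its values are those of LH3-AL against GFP-AL. For all 1746 genes matched, the sign in the authors' deposited table equalled that of the log2 ratio of mean FPKM between LH3-AL and GFP-AL, with a median absolute difference of 0.02. Against the ratio of LH3-AL to GFP-Veh, 58.8% had the same sign and the median absolute difference was 1.45. That authors' deposited table gives Inhbb -3.54, Thbs1 -1.87, Tgfbi -1.51, Smad1 -1.35, Tgfb1 -1.01, Ltbp4 1.03 and Tgfb2 1.52. It also lists Fst at -1.39, which lay below the filter here, and Skil at -1.05, which limma did not call in LH3-AL against GFP-AL (adjusted p = 0.326). No deposited table for LH3-AL against GFP-Veh was used here, and that comparison rests on the FPKM values alone.

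Without strand information, reads of overlapping genes cannot be told apart. In GENCODE M21, exons of Tgfb2, Tgfb3, Bmp4, Bmp5, Bmp6, Ltbp2, Ltbp3, Thbs1, Bmpr1a, Acvrl1, Acvr2a, Eng, Id4 and Fst overlap exons of a gene on the opposite strand. The partner is Txndc5 for Bmp6, Fpgs for Eng and Orc4 for Acvr2a. Tgfb1, Inhbb, Ltbp4, Smad1, Smad3, Smad9, Tgfbi, Fstl1 and Tgif1 have no such overlap.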

How the data were processed

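RNA of cerebral vessels, prepared by homogenisation in sucrose and repeated low-speed spins after removal of pia mater and choroid plexus per the labels' protocols, was sequenced in 15 libraries. STAR 2.5.1b and the build mm8 stand in the submitters' processing notes. The counting step, annotation and strandedness: not given in the sources used here. As deposited by the authors, the table holds FPKM values for 22557 genes, of which 5.99% lie below 0 (lowest -0.465) and none is exactly 0. No source used here names the step behind this, and such values were replaced by 0. The authors also deposited log2 fold changes with p-values and q-values for genes past their thresholds.

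Rows sharing a symbol (31 symbols) were summed. Positions are those of GENCODE M21 (GRCm38), matched by gene ID for 22400 genes, since the files hold no coordinates. Depth was estimated from FPKM times exon length; 42.8% to 65.0% of values up to 10 reads were whole within 0.1 read, too few for a count test. Log2(FPKM + 1) values of the 13082 genes averaging 1 FPKM or more were fitted with limma 3.58.1 (R 4.3.3), using a mean per group, all 15 libraries and an intensity trend. Fold changes on this scale understate the change of low genes. Benjamini-Hochberg adjustment ran over all genes of a comparison.

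The genes, lists and libraries doubted were chosen with earlier results of these data known. Genes called with no overlap between the groups are given in every library. Of other pathway genes up to 4 called per list and direction are named, smallest p first. Itgb8, Fn1 and Junb, which were called, were named in addition after their values were seen. The same holds for Acta2 and the other uncalled genes named from these lists. An item of these lists is not reported here. The labels do not say whether libraries with equal replicate numbers share an animal, litter or day, and the main fit used no replicate block. Deviations of same-numbered libraries correlated at -0.26 to 0.29 (15 pairs), which cannot exclude such a pairing.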

Additional observations from a re-analysis of the deposited data

Results flagged for a closer look

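In 150 groups of 5 libraries (50 genes in 3 groups), 9 had a highest or lowest library whose gap to its nearest neighbour exceeded 0.71 of the group's range. Chance flags about 1 group in 20. GFP-AL replicate 2 was set apart for Tgfbi at 103 FPKM, beside 36.2 to 54.1 in the other libraries of its group. It was also set apart for Inhba at 1.56 FPKM, beside 0.0904 to 0.220 in the other libraries of its group, and for Smurf1 at 8.40 FPKM, beside 10.8 to 11.7 in the other libraries of its group. Bambi in GFP-AL replicate 3 was at 5.30 FPKM, beside 2.09 to 2.77 in the other libraries of its group. In LH3-AL, Acvr1b of replicate 2 was at 14.5 FPKM, beside 8.29 to 9.70 in the other libraries of its group. Id2 of LH3-AL replicate 4 was at 44.8 FPKM, beside 50.6 to 52.4 in the other libraries of its group. Ski was set apart in LH3-AL replicate 1 at 14.2 FPKM, beside 40.6 to 48.2 in the other libraries of its group, and in GFP-Veh replicate 4 at 12.4 FPKM, beside 38.9 to 48.4 in the other libraries of its group. Tgfbi in GFP-Veh replicate 2 was at 24.6 FPKM, beside 17.5 to 19.2 in the other libraries of its group.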

How the results depend on the processing

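The settings varied were the pseudocount (0.1), the filter (none, or 5 FPKM) and the scaling (median-of-ratios or quantile). Others were a fit of only the 2 groups compared, log2 depth as a covariate, the replicate number as a block, and no intensity trend. Each library of the 2 groups compared was left out in turn, but no library of the third group. In a further setting the 3 libraries that stood apart were left out together. Under each of these settings the number of pathway genes called stayed within 11 to 19 in GFP-AL against GFP-Veh. It stayed within 10 to 19 in LH3-AL against GFP-AL and was 0 in LH3-AL against GFP-Veh. Leaving out 1 library gave 13 to 19, 13 to 19 and 0. In GFP-AL against GFP-Veh 12 of the 15 called genes kept their call under every alternative that tested them (Bmp2, Fstl1, Id4, Inhbb, Ltbp2, Ltbp4, Smad1, Tgfb1, Tgfb2, Tgfbi, Tgif1 and Thbs1), and 9 uncalled genes gained one in some alternative. In LH3-AL against GFP-AL 13 of 15 kept it, 8 gained one with the same sign, and Eng gained one with its sign turned. These counts cover the 48 tested genes; with no filter Fst was also called in both. For Eng, the LH3-AL against GFP-AL difference of -0.01 became 0.30 with quantile normalization (adjusted p = 0.0333); the cause was not tested.

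Over all genes, the filter at 5 FPKM, which tests fewer genes, gave 2174 calls in GFP-AL against GFP-Veh and 2109 in LH3-AL against GFP-AL, in place of 3737 and 3723. Log2 depth as a covariate gave 2363 in the first and 4 in LH3-AL against GFP-Veh, in place of 68. In that comparison a fit of only those 2 groups gave 176, omission of the 3 libraries that stood apart 158, and the replicate block 31; the cause was not tested. Leaving out 1 library gave 2840 to 4437, 2658 to 3939 and 27 to 57 calls. With the replicate block 16 and 14 pathway genes were called in GFP-AL against GFP-Veh and LH3-AL against GFP-AL. Correlations were -0.26 to 0.29 between same-numbered libraries, beside -0.38 to 0.40 for other pairs. The labels do not say whether same-numbered libraries share more than the number. Genes near 1 FPKM, such as Tgif1, Grem1 and Acvr2b, lie close to the filter, and 4 of the 5 GFP-Veh libraries were the shallowest. Calls of pathway genes outside the 50 were not recomputed under these settings.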

Other observations

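Ski was low in LH3-AL replicate 1 (14.2 FPKM), GFP-AL replicates 1 and 5 (10.1 and 9.61 FPKM) and GFP-Veh replicate 4 (12.4 FPKM), and between 38.9 and 50.4 FPKM in the other 11 libraries. No library had a value in between. The low libraries are spread over all 3 groups, and what else they share was not tested.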
